A study of Mus musculus with 3 samples.

Results

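The granzymes are the serine proteases of cytotoxic granules, and perforin is the protein that lets them into a target cell. Their transcripts were taken by gene symbol from the deposited expression table, which held all 10 members (Gzma, Gzmb, Gzmc, Gzmd, Gzme, Gzmf, Gzmg, Gzmk, Gzmm and Prf1) among 17121 genes. The study sequenced RNA of primary CD8+ T cells, the killer T cells, isolated from spleen and lymph node of wild-type mice and cultured for 3 days. There were 3 samples in 3 groups. The aged TRM sample came from mice of 18 months, and its medium held 5 ng/ml TGF-beta, 20 ng/ml IL-15 and 1 µg/ml of anti-CD3 and anti-CD28 antibodies, a mixture named for tissue-resident memory (TRM) cells. The young TRM sample had the same antibodies and cytokines but came from mice of 6 weeks. The young TCR sample, also from mice of 6 weeks, had only the antibodies, which engage the antigen receptor (TCR) and the co-stimulatory receptor CD28. All 3 groups thus had been activated, and the labels give neither the strain, nor the number of mice, nor whether cells of several mice were mixed.

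A killer T cell stores granzymes and perforin together in granules and releases them onto a bound target, where perforin opens the membrane and granzymes cleave proteins inside the cell. Granzymes are made as inactive precursors that cathepsin C trims in the granule. In mice the genes fall into 3 chromosomal groups, one with Gzmb and its relatives, one with Gzma and Gzmk, and one with Gzmm. TGF-beta is known to hold down several cytotoxic genes in T cells, and IL-15 is known to raise granzyme B and perforin in memory CD8+ T cells.

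The table gave 40385477 reads to aged TRM, 36021887 to young TRM and 39915663 to young TCR. Each sample had 2 numbered columns, taken as repeat measurements of 1 sample because the labels list 1 sample per group. The typical gene of at least 100 reads differed by 1.04-fold between the columns in aged TRM, 1.05-fold in young TRM and 1.05-fold in young TCR. No difference could therefore be compared with the variation among mice. Levels within a gene are given as CPM, read counts scaled to a common library size. Levels between genes are given as deposited TPM, which also divides by transcript length. Testing required 1 CPM in 1 library or more. A gene was called higher or lower if its CPM plus 1 differed by at least 2-fold and the 95% counting interval of its ratio excluded 1. Folds in the text carry no added count, and their intervals cover counting error only. The defining T cell transcripts were present in each library: Cd3e had 364 CPM in aged TRM, 380 CPM in young TRM and 302 CPM in young TCR, and Cd8b1 had 518, 593 and 424 CPM in the same order.

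In young TRM, cultured with the added cytokines, Gzmb, Gzma, Gzmm and Prf1 were called lower than in young TCR, and no member was called higher. In aged TRM, Gzmb, Gzma and all 5 of Gzmc to Gzmg were called higher than in young TRM, and no member was called lower. Among all 11588 genes tested in the first comparison, 3.6% were called lower and 4.18% higher (7.78% in all). Among 11575 genes in the age comparison, 2.25% were called higher and 1.15% lower (3.4% in all). In the first comparison 7 of 10 members reached 1 CPM, with a median log2 ratio of -1.24 beside 0.02 over all genes tested. With age 10 of 10 did, with a median of 1.68 beside -0.01. However, Gzme, Gzmf and Gzmg reached 1 CPM through aged TRM alone, so the count and the median there are partly set by the filter. Over the 7 members tested in both comparisons the age median was 1.16. Both comparisons contain the young TRM sample, so a value of that library moves both in opposite directions.

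**Figure D1:**
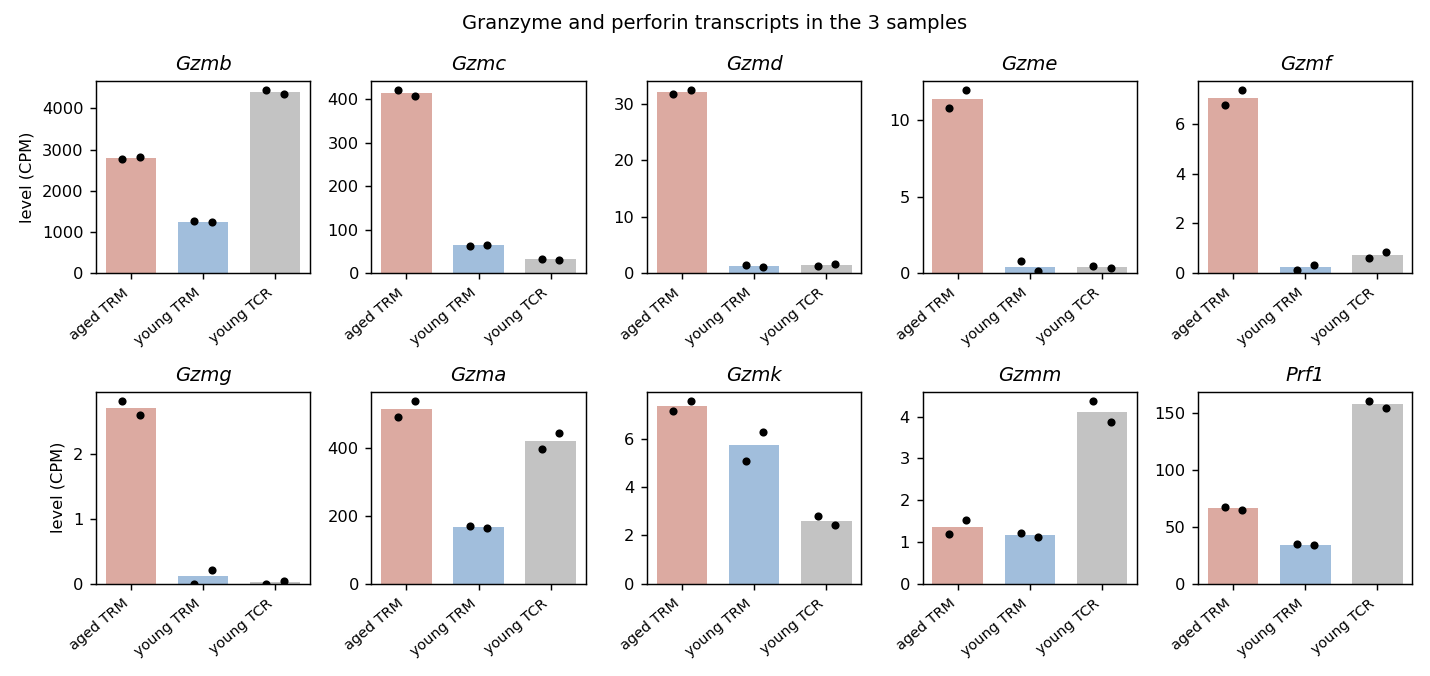
Level of each member in CPM (vertical axes, each from 0) in aged TRM, young TRM and young TCR. Bars show the sample's value and dots its 2 columns. Gzmb, Gzma and Prf1 are lowest in young TRM, and Gzmc to Gzmg are highest in aged TRM.

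Gzmb encodes granzyme B, which cleaves after aspartate and sets off apoptosis. It had 2807 CPM in aged TRM, 1251 CPM in young TRM and 4393 CPM in young TCR. The columns were 2783 and 2830.3 CPM in aged TRM, 1258 and 1246 CPM in young TRM, and 4443 and 4342 CPM in young TCR. No column of one sample overlapped another's. Young TRM was 3.51-fold lower than young TCR (interval 3.47 to 3.55), and aged TRM was 2.24-fold higher than young TRM (2.22 to 2.27). By TPM, Gzmb ranked 22nd among the genes of aged TRM, 97th in young TRM and 6th in young TCR. Its reads made up 0.283% of the aged TRM library, 0.122% of the young TRM library and 0.446% of the young TCR library.

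Gzmb lies at the edge of a cluster on chromosome 14 (GENCODE M21 annotation, GRCm38, positions 56258838 to 56262260, minus strand). The promoter of Gzmb and 2 promoters of the neighbouring granzyme genes are shown here because the levels of those genes ordered the samples differently from Gzmb. They run from 250 bases before to 50 bases after the RefSeq start (assembly GRCm38.p6, minus strand), at chr14:56262285-56262584, chr14:56234608-56234907 and chr14:56132544-56132843. The RefSeq start of Gzmb lies upstream of its GENCODE start, so its window falls wholly outside the Gzmb positions given above. Capitals mark every match to the motifs searched.
Gzmb: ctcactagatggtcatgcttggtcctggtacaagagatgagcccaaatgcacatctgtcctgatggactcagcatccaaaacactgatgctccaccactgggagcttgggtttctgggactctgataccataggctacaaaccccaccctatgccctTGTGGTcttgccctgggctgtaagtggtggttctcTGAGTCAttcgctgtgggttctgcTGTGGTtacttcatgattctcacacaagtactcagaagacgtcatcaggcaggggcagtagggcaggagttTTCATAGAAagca
Gzmc: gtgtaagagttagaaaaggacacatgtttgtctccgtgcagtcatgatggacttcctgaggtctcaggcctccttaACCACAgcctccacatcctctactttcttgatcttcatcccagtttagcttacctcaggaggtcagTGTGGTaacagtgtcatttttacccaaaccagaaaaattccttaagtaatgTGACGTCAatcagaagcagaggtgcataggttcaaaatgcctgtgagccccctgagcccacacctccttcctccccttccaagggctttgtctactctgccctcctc
Gzmd: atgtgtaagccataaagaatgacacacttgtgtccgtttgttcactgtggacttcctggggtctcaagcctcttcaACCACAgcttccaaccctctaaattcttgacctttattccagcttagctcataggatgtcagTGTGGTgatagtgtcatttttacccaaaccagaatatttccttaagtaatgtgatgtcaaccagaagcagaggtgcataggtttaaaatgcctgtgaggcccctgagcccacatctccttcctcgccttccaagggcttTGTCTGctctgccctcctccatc

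The motifs were searched on both strands in all 10 members and in 32851 RefSeq promoters of the same length. They were chosen after the values were seen. The Gzmk window lies inside the GENCODE gene, as its RefSeq and GENCODE starts differ. A RUNX core (TGTGGT) stood in 16.8% of all promoters and at least 2 copies in 1.81%. Gzmb and each of Gzmc to Gzmg held 2 copies, while Gzma, Prf1 and the first Gzmm promoter held 1 and Gzmk held 0. An AP-1 site (TGANTCA), found in 7.81% of all promoters, stood in the Gzmb promoter alone among the members, 58 bases before the RefSeq start. A CRE (TGACGTCA), found in 1.79%, stood in Gzmc, Gzmf and Gzmg. A STAT site (TTCNNNGAA, 8.3% of all promoters) matched in Gzmb and Gzmm, and a T-box site (GGTGTGA, 3.98%) in Gzmk and the second Gzmm promoter. A SMAD-type run (CAGACA, 21.0%) matched in Gzmd, Gzme and Gzmg, and TATAAA (13.6%) in no member. No matches in the members overlapped. A match describes these letters and no more.

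The CRE position shows how alike these promoters are. The stretches of 30 bases below start 11 bases before it, and capitals mark the 8 bases at that position. Counted from 1 at the first capital, Gzmd carries C4T and Gzme carries G5A relative to the CRE, whereas the other 3 match it.
Gzmc: cttaagtaatgTGACGTCAatcagaagcag
Gzmd: cttaagtaatgTGATGTCAaccagaagcag
Gzme: cttaagtaatgTGACATCAaccagaagcag
Gzmf: cttaagtaatgTGACGTCAatctgaagcag
Gzmg: cttaagtaatgTGACGTCAatcagaagcag
Aligned over their whole length, the promoters of Gzmc to Gzmg were 73.5% to 93.4% identical to each other and 43.3% to 46.9% identical to that of Gzmb. Shared matches among these 5 genes are therefore not separate observations.

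Gzmc to Gzmg encode granzymes C to G, proteases of rodents whose substrates are less well known than those of granzyme B. The genes follow Gzmb on the minus strand, with Gzmc 27.6 kb, Gzmf 50.8 kb, Gzmg 103 kb, Gzmd 130 kb and Gzme 142 kb from the GENCODE start of Gzmb. Their coding sequences are 71.1% to 93.3% identical to each other. The 60 coding bases of Gzmd that end with the codons around its active-site serine are shown with the aligned bases of its relatives, because such stretches decide whether a read can be given to 1 gene. Capitals mark bases that differ from Gzmd.
Gzmd: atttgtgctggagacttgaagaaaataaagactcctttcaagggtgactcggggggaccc
Gzme: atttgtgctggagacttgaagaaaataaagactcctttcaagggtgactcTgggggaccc
Gzmg: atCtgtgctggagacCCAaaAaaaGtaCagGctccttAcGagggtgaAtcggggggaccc
Gzmf: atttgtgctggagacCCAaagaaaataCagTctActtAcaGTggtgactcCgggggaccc
Gzmc: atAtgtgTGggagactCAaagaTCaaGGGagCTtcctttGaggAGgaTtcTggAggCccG
Gzme differs from Gzmd at 1 of these bases, Gzmf at 10, Gzmg at 11 and Gzmc at 20. Of all 50-base windows of each transcript, 21.9% of those of Gzmd, 20.6% of Gzme, 19.8% of Gzmg, 7.36% of Gzmf and 4.14% of Gzmc also occurred in a transcript of another gene. No window of 50 bases was shared for Gzmb, Gzma, Gzmk, Gzmm or Prf1. With 100 bases, 2 windows were shared between Gzmd and Gzmg and none for the other members. The sources used here do not give the read length or the treatment of reads that match several genes, so the split of reads among Gzmd to Gzmg is uncertain.

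Among Gzmc to Gzmg, Gzmc had the highest TPM in every sample (928 TPM in aged TRM, 138 TPM in young TRM and 69.0 TPM in young TCR). It had 413 CPM in aged TRM, with columns of 420.3 and 406 CPM. It had 63.5 CPM in young TRM, with columns of 62.6 and 64.3 CPM, and 31.5 CPM in young TCR, with columns of 32.0 and 31.0 CPM. The order of the samples thus differs from that of Gzmb, since young TCR is lowest, and no columns overlap. Aged TRM was 6.5-fold higher than young TRM (6.22 to 6.8). Young TRM was 2.02-fold higher than young TCR (1.88 to 2.16), which just missed the call (log2 ratio 0.99). It was called with a pseudocount of 0.5 CPM (1.00) and with column 2 alone (1.03).

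Gzmd, Gzme, Gzmf and Gzmg were near the limit of counting in both young samples and clearly present in aged TRM. Gzmd had 1308 reads in aged TRM, 42 in young TRM and 57 in young TCR, or 32.2, 1.19 and 1.41 CPM in that order. Gzme had 463, 15 and 17 reads (11.4, 0.426 and 0.419 CPM), and Gzmf had 287, 8 and 29 reads (7.06, 0.227 and 0.715 CPM). Gzmg had 110 reads in aged TRM, 4 in young TRM and 1 in young TCR (2.71, 0.114 and 0.0247 CPM). The columns of aged TRM were at most 1.11-fold apart for these 4 genes, and every one lay above every column of the young samples. The columns of young TRM lay 4.96-fold apart for Gzme and 2.42-fold apart for Gzmf, and Gzmg had 0 reads in one and 4 in the other. Aged TRM was 27-fold higher than young TRM for Gzmd (19.9 to 37.6), 26.8-fold for Gzme (16.1 to 48.2), 31.1-fold for Gzmf (15.6 to 72.7) and 23.8-fold for Gzmg (9.05 to 89.0). Single columns paired across the samples gave 14.2-fold to 77.8-fold for Gzme and 22-fold to 57.9-fold for Gzmf. The Gzme range is wider than its interval, but single columns hold fewer reads than the sums (12 and 3 in young TRM). Spread between columns beyond counting error can therefore not be read from that range. The counting intervals overlap one another and lie above the 2.24-fold of Gzmb and the 6.5-fold of Gzmc. The call of Gzmg was lost with a pseudocount of 5 CPM (log2 ratio 0.59).

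The young samples did not separate for most of these genes. The ratio of young TRM to young TCR was 0.848 for Gzmd (0.555 to 1.29), 1.02 for Gzme (0.472 to 2.16) and 4.6 for Gzmg (0.455 to 227), with intervals that include 1. For Gzmf it was 0.317 (0.125 to 0.712) on 8 and 29 reads, below the level at which genes were tested. Taken as 1 feature, Gzmc to Gzmg had 466 CPM in aged TRM, 65.5 CPM in young TRM and 34.1 CPM in young TCR. How reads were split among these genes does not alter this total. Reads shared with other genes, or discarded for matching several genes, could alter it. Gzmd, Gzme and Gzmg share 50-base windows with Gzmn, a granzyme gene absent from the expression table. On the summed feature aged TRM was 7.12-fold higher than young TRM (6.82 to 7.44). Young TRM was 1.92-fold higher than young TCR (1.8 to 2.06), short of a call. Per 100 reads of Gzmc, Gzmd had 7.79 reads in aged TRM, 1.88 in young TRM and 4.46 in young TCR, and Gzme had 2.76, 0.67 and 1.33. Gzmf had 1.71, 0.357 and 2.27 reads, and Gzmg had 0.655, 0.179 and 0.0783. On this measure all 4 genes were higher in aged TRM than in young TRM. The place of young TCR differed among them, but it rested on few reads (29 for Gzmf and 1 for Gzmg). No intervals were computed for this measure, and the split of reads among these genes is uncertain.

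**Figure D2:**
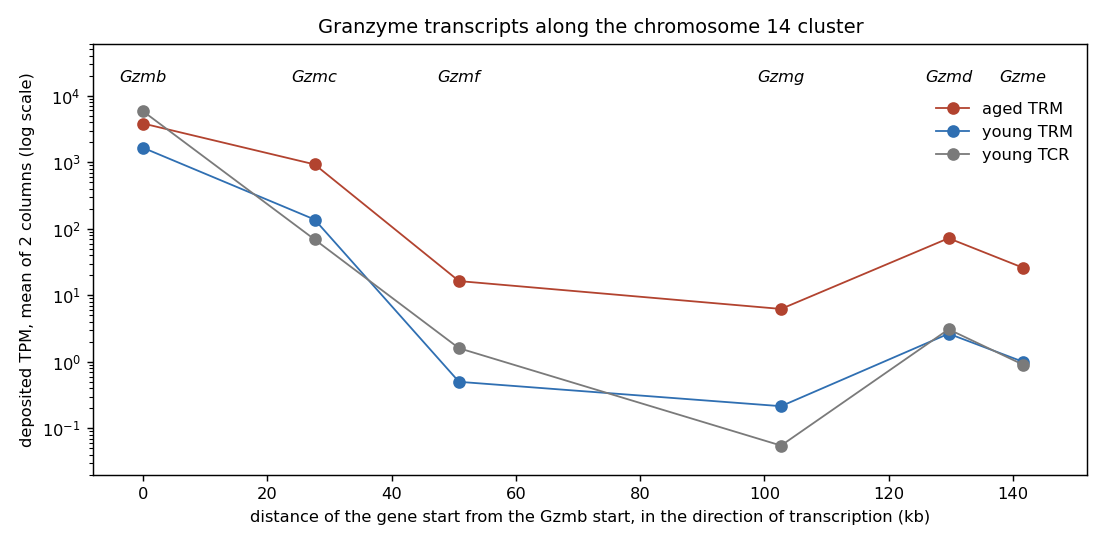
Deposited TPM (vertical axis, log scale, mean of 2 columns) of the 6 clustered granzyme genes against the distance of their start from the Gzmb start (horizontal axis, kb); lines join the genes of a sample. Aged TRM lies above young TRM at every gene, and above young TCR at every gene except Gzmb.

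Gzma and Gzmk encode granzymes A and K, which cleave after lysine or arginine, and lie near each other on chromosome 13 (positions 113093825 to 113100981 for Gzma, minus strand). Gzma had 517 CPM in aged TRM, 167 CPM in young TRM and 423 CPM in young TCR. Its columns were 493 and 540.5 CPM, 170 and 165 CPM, and 399 and 446 CPM in the same order. Aged TRM lay above young TCR in every column, by 1.22-fold in all (1.2 to 1.25), whereas Gzmb in aged TRM was 1.57-fold below young TCR. Young TRM was 2.53-fold lower than young TCR (2.46 to 2.61), and aged TRM was 3.1-fold higher than young TRM (3.01 to 3.19). The Gzma columns were up to 1.12-fold apart within a sample, so the gap between aged TRM and young TCR is not far beyond that spread.

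Gzmk, a gene of memory-like CD8+ T cells that is often high in old mice, was weakly expressed and, like Gzmc, had its lowest level in young TCR. It had 7.35 CPM in aged TRM (299 reads), 5.73 CPM in young TRM (202 reads) and 2.61 CPM in young TCR (106 reads). The columns were 7.15 and 7.56 CPM, 5.08 and 6.26 CPM, and 2.8 and 2.43 CPM in that order, without overlap. Young TRM was 2.19-fold higher than young TCR (1.72 to 2.8), which missed the call at a log2 ratio of 0.90 but passed with a pseudocount of 0.5 CPM (1.00) or column 2 alone (1.09). The age ratio was 1.28 (1.07 to 1.54), and single columns paired across the samples gave 1.14 to 1.49, so no call was made. Gzmm encodes granzyme M, which cleaves after methionine or leucine and is best known from NK cells. It had 1.35 CPM in aged TRM (55 reads), 1.16 CPM in young TRM (41 reads) and 4.12 CPM in young TCR (167 reads). Both TRM samples lay below young TCR in every column and overlapped each other. Young TRM was 3.54-fold lower than young TCR (2.5 to 5.11), a call that a pseudocount of 5 CPM removed (log2 ratio -0.57), and the age ratio of 1.16 had an interval that includes 1 (0.762 to 1.79).

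Prf1 encodes perforin and lies on chromosome 10 (positions 61297833 to 61304680, plus strand). It had 66.2 CPM in aged TRM, with columns of 67.6 and 64.9 CPM. It had 34.1 CPM in young TRM, with columns of 34.8 and 33.6 CPM, and 157 CPM in young TCR, with columns of 160.4 and 154 CPM. The 3 samples did not overlap, and aged TRM lay between the young samples, nearer to young TRM. Young TRM was 4.61-fold lower than young TCR (4.33 to 4.9), the lowest log2 ratio of any member (-2.17). Aged TRM was 1.94-fold higher than young TRM (1.81 to 2.08), which missed the call (log2 ratio 0.94) under all 9 other settings too. Aged TRM was 2.37-fold lower than young TCR (2.27 to 2.48), a comparison in which age and cytokines both differ and no call was made.

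**Figure D3:**
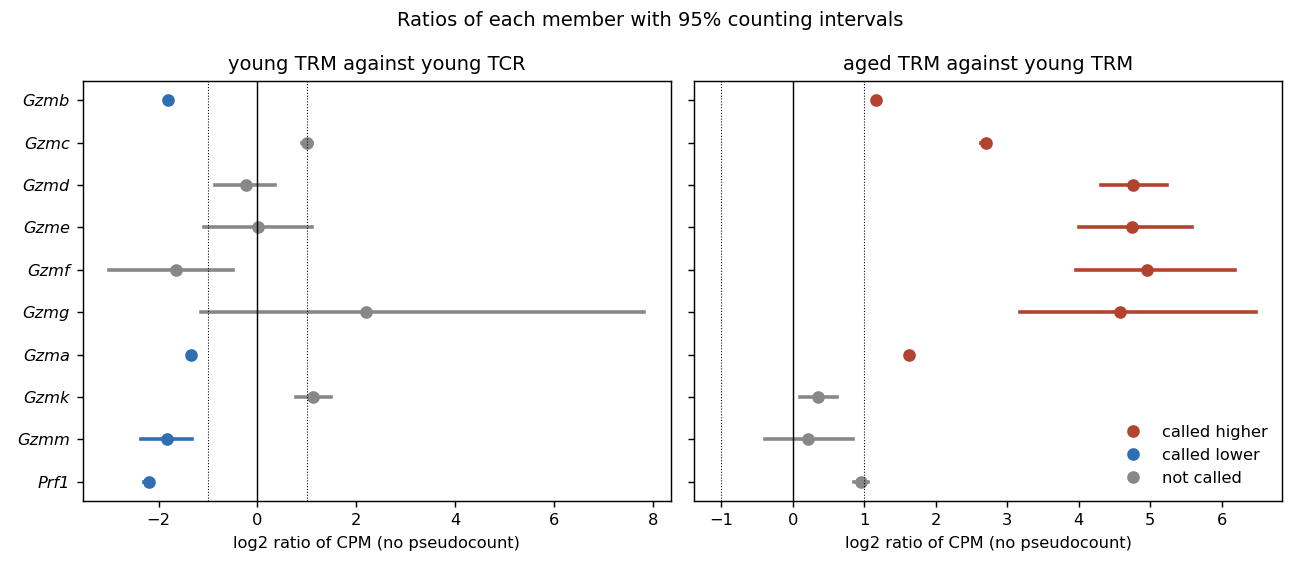
Log2 ratio of CPM without a pseudocount (horizontal axes) of each member, with 95% counting intervals as lines, in young TRM against young TCR (left) and aged TRM against young TRM (right). Dotted lines mark 2-fold. Gzmd to Gzmg stand farthest to the right in the age comparison, and Prf1 is the lowest called member in the cytokine comparison.

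Because members moved unequally, the make-up of the family differed between samples. The 9 granzymes together had 6127 TPM in aged TRM, 2190.2 TPM in young TRM and 6902 TPM in young TCR. Of the summed TPM of granzymes and perforin, Gzmb held 61.9% in aged TRM, 74.4% in young TRM and 82.9% in young TCR. Gzmc held 15.0%, 6.2% and 0.981% in the same order. Gzma held 20.0%, 17.5% and 14%. The shares of Gzmb differed by at most 1.54 percentage points between the columns of a sample, less than the gaps between samples. Perforin held 0.876% in aged TRM, 1.25% in young TRM and 1.8% in young TCR, and there were 70.6 TPM of Gzmb for each TPM of Prf1 in aged TRM, 59.6 in young TRM and 46.2 in young TCR.

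**Figure D4:**
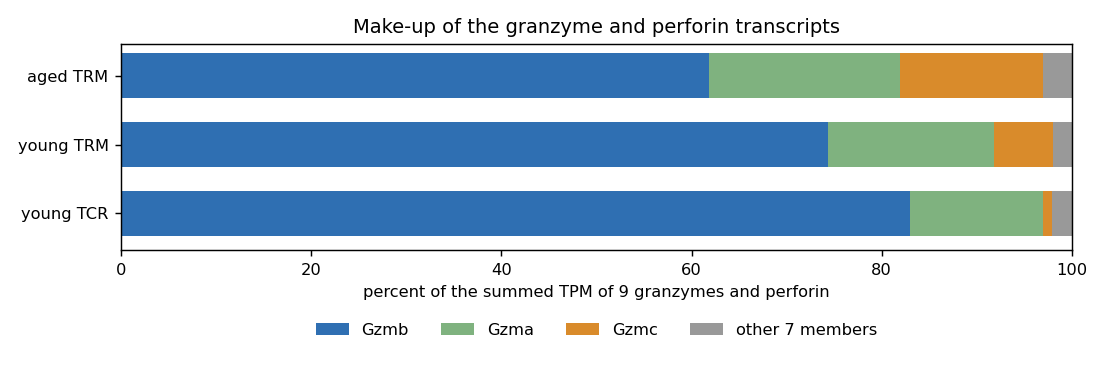
Percent of the summed deposited TPM of 9 granzymes and perforin (horizontal axis) held by Gzmb, Gzma, Gzmc and the other 7 members in each sample. The Gzmc share is 15.0% in aged TRM, 6.2% in young TRM and 0.981% in young TCR.

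Other genes that load, release or restrain granzymes were taken from lists of the pathway. Among 14 genes of granule loading and activation, 1 was called higher and 1 lower in young TRM against young TCR, with a median log2 ratio of -0.02. Ctsw, a cathepsin of killer cells, had 419 CPM in young TRM and 156 CPM in young TCR. Cst7, which encodes cystatin F, an inhibitor of cathepsin C, had 36.1 CPM in young TRM and 138 CPM in young TCR. Ctsc, the granzyme-activating cathepsin C, had 170 and 118 CPM, and Srgn, the serglycin core on which granzymes are stored, had 451 and 292 CPM, neither of them called. In the age comparison 3 of the 14 were called higher and 0 lower. These were Cst7 (76.5 CPM in aged TRM and 36.1 CPM in young TRM), Cd63 (6.05 and 2.13 CPM), a granule membrane protein, and Ctla2a (281 and 108 CPM), a cathepsin inhibitor. Ctsc had 168 CPM in aged TRM and 170 CPM in young TRM.

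Among 20 genes of granule transport and release, 0 were called higher and 2 lower with the cytokines. Sytl2 had 5.28 CPM in young TRM and 23.5 CPM in young TCR, and Sytl3 had 14.7 and 47.1 CPM. Both encode synaptotagmin-like proteins that bind Rab27a on granules. With age Sytl3 alone was called higher (35.2 CPM in aged TRM and 14.7 CPM in young TRM). The medians were -0.05 and 0.02, close to the 0.02 and -0.01 over all genes tested. Rab27a, Unc13d, Stx11, Stxbp2 and Lyst, whose loss impairs granule release, were called in neither comparison. Short of a call, the ratio of young TRM to young TCR was 0.529 for Lyst and 0.635 for Stx11. It was 0.997 to 1.23 for Stxbp2, Rab27a and Unc13d. The age ratio was 1.71 for Stx11 and 1.30 for Rab27a, and 0.958 to 1.02 for Unc13d, Lyst and Stxbp2.

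Of 7 serpins listed as granzyme inhibitors, 4 were called lower and 2 higher in young TRM against young TCR. Serpinb9, which protects killer cells from their own granzyme B, had 54.5 CPM in young TRM and 327 CPM in young TCR. Its relatives Serpinb9b (1.08 and 27.1 CPM) and Serpinb6b (43.2 and 462 CPM) were lower as well. The 2 higher ones, Serpina3f (123 and 27 CPM) and Serpina3g (280.1 and 85.9 CPM), belong to another clade, and Serpina3g is known for inhibiting lysosomal cathepsins. In aged TRM, Serpinb9 (149 CPM, against 54.5 CPM in young TRM), Serpinb6b (139 and 43.2 CPM) and Serpinb9b (17.4 and 1.08 CPM) were called higher and 0 lower. The list's median was -1.26 with the cytokines and 0.93 in the age comparison.

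Among 27 regulators of effector genes, 4 were called higher and 6 lower with the cytokines, with a median of -0.17. The largest changes were in Jun (335 CPM in young TRM and 61.4 CPM in young TCR), Batf (11.2 and 62.7 CPM), Prdm1 (3.09 and 18.0 CPM) and Smad7 (68.9 and 15.7 CPM). Prdm1 encodes Blimp-1, a driver of effector fate, and Smad7 encodes a feedback inhibitor of TGF-beta signalling. Named after their values were seen, the T-box gene Eomes was called lower (93.5 and 217 CPM), while Tbx21 had 117 and 77.6 CPM and was not called. In the age comparison Prdm1 (7.45 CPM in aged TRM and 3.09 CPM in young TRM) and Batf (24.7 and 11.2 CPM) were called higher and 0 lower, with a median of -0.06. Eomes had 65.1 CPM in aged TRM and 93.5 CPM in young TRM, and Tbx21 had 112 and 117 CPM.

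Of 5 other killing ligands and cytokines, 3 were called higher in young TRM against young TCR and 0 lower. Tnfsf10, the death ligand TRAIL, had 181 CPM in young TRM and 71.6 CPM in young TCR, and Tnf (44.7 and 15.0 CPM) and Lta (89.8 and 20.4 CPM) were higher too. Fasl, the ligand of the Fas death receptor, had 20.2 and 36.0 CPM, and Ifng, the cytokine interferon gamma, had 82.1 and 103 CPM. Neither was called. Of the 5, Ifng alone was called with age (478 CPM in aged TRM and 82.1 CPM in young TRM), while Fasl had 32.8 and 20.2 CPM.

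**Figure D5:**
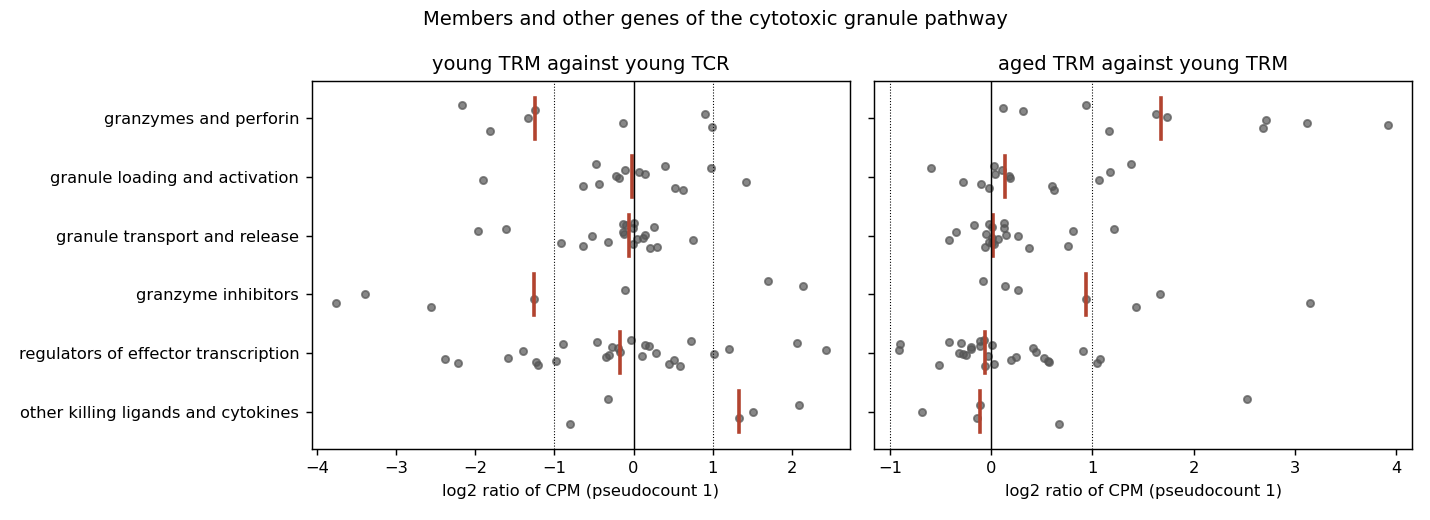
Log2 ratio of CPM with a pseudocount of 1 (horizontal axes) of each tested gene of 6 lists, in young TRM against young TCR (left) and aged TRM against young TRM (right). Dots are genes, red bars list medians and dotted lines 2-fold. Granzymes with perforin and the inhibitors have medians of -1.24 and -1.26 on the left and 1.68 and 0.93 on the right, while loading and transport genes have medians near 0. The 1.68 includes Gzme, Gzmf and Gzmg, tested through aged TRM alone, and is 1.16 without them.

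Genes next to the members were mostly silent or not called. Ctsg, a protease of neutrophils and the listed gene that follows Gzme, had 24 reads in aged TRM, 4 in young TRM and 2 in young TCR. On the other side of Gzmb, Atp12a had 12, 9 and 10 reads in the same order. Gpx8, Esm1 and Cdc20b, beside Gzma and Gzmk, had at most 1.28 CPM in any sample. In aged TRM, Gpx8 (1.28 CPM, against 0.341 CPM in young TRM) and Esm1 (1.06 and 0.0851 CPM) were higher, as Gzma was. Neither was called (log2 ratios 0.77 and 0.92). Cdc20b (0.984 and 0.738 CPM) was below the level at which genes were tested. Cdc34 and Bsg, which flank Gzmm, were called in neither comparison. Adamts14, 24.3 kb from Prf1, was called lower with the cytokines (2.04 CPM in young TRM and 12 CPM in young TCR) and not called with age.

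Likeness to a member was measured over 3 samples as the distance between pairs of log2 ratios (young TRM over young TCR, aged TRM over young TRM). The ratios had a pseudocount of 1 CPM, and 9209 genes of at least 10 CPM in 1 library were considered. The 5 genes nearest to Gzmb were Kcnc1, Cst7, Ckb, Smpdl3b and Tspan4, at distances of 0.12 to 0.17. The 5 nearest to Prf1 were Prdm1, BC035044, Slc37a2, Plxnc1 and Slc2a6, at 0.12 to 0.15. Gzmc had no such close match. Its nearest genes were Mcpt1, Il1a, Anxa3, Gzme and Ppp2r3a, at 0.83 to 1.16.

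The summed markers of each other cell type lay below Gzmb and Gzma in every sample, but some sums lay above weaker members. In aged TRM the NK and innate lymphoid sum of 129 CPM, 110.5 CPM of it Kit, exceeded Prf1 (66.2 CPM) and Gzmd (32.2 CPM). The B cell (23.0 CPM), CD4 T cell (30.1 CPM) and mast cell and basophil (13.9 CPM) sums there each exceeded Gzme (11.4 CPM), Gzmf (7.06 CPM) and Gzmg (2.71 CPM). In young TCR the B cell sum of 46.2 CPM and the NK and innate lymphoid sum of 34.3 CPM each exceeded Gzmc (31.5 CPM). In young TRM the NK and innate lymphoid sum of 98 CPM, 78.4 CPM of it Kit, exceeded Gzmc (63.5 CPM) and Prf1 (34.1 CPM). Some markers also moved with the groups. The 6 B cell markers summed to 23.0 CPM in aged TRM, 16.9 CPM in young TRM and 46.2 CPM in young TCR. Of them, 5 were called lower in young TRM against young TCR and 3 higher in aged TRM against young TRM, the same directions as Gzmb. NK cells also make granzymes. The 9 NK and innate lymphoid markers summed to 129, 98 and 34.3 CPM in the same order, most of it Kit. In the cytokine comparison 5 of the 9 markers were called higher, opposite to Gzmb and Prf1, and in the age comparison 0. Gzmc (413, 63.5 and 31.5 CPM) and Gzmk (7.35, 5.73 and 2.61 CPM) ordered the samples as this sum did. Of the NK and innate lymphoid sums Kit held 110.5, 78.4 and 29.6 CPM, and the NK receptor gene Ncr1 had 1.18, 2.19 and 0.0493 CPM. The 7 myeloid markers summed to 7.55, 9.91 and 13.4 CPM, with Adgre1 at 0 in young TRM, and 0 of them were called. The 6 mast cell and basophil markers summed to 13.9, 10.2 and 2.64 CPM, the sample order of Gzmc and Gzmk, with Tpsb2 at 0 in young TCR. Of these, 2 were called higher in young TRM against young TCR and 0 in the age comparison. Of 4 CD4 T cell markers (30.1, 54.2 and 31.0 CPM), Foxp3 was called higher and Zbtb7b lower in young TRM against young TCR, and Foxp3 was called lower in aged TRM against young TRM (3.71, 33.6 and 1.95 CPM). The 2 gamma-delta T cell markers in the table, Sox13 and Blk, summed to 0.738, 0.454 and 1.55 CPM. The receptor genes Trdc, Tcrg-C1, Tcrg-C2 and Tcrg-V6 were absent from it, so gamma-delta T cells could not be judged. The 10 T and CD8 identity genes summed to 4376, 4743 and 3353 CPM, and of these Cd8a alone was called, higher in young TRM (1822 CPM) than in young TCR (747 CPM). In bulk RNA, fewer cells of a type and less RNA per cell cannot be told apart, and the part of other cells in the granzyme values was not tested.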

How the data were processed

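The 3 samples of mouse CD8+ T cells, 1 per group, had been profiled by RNA sequencing. Per the submitters' processing notes, Bowtie and the assembly GRCm38 (mm10) were used. The sources used here do not give the counting program. For 2 numbered columns per sample, the table held estimated counts, deposited by the authors as reads per gene before normalization, per the file headers. It also held TPM, so named per the file headers and used as deposited, a unit that divides by transcript length. A further 24 value columns were not used.

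The counts were rounded, summed over the columns of a sample and scaled by TMM factors (edgeR 4.0.16, R 4.3.3). Log2 ratios had a pseudocount of 1 CPM. Clopper-Pearson intervals of the ratio (95%) came from scipy 1.17.1. No p-value was computed, since with 1 sample per group no test across mice is possible. Reads are not independent molecules, so intervals cover counting error only. Totals were 36021887 to 40385477 reads per sample.

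Gene positions and transcripts came from GENCODE M21 (GRCm38) and promoters from RefSeq (GRCm38.p6), and all 10 members matched. Alignments were made with Biopython 1.88. Alternatives changed the scaling (totals only, or DESeq2 1.42.0 size factors), the pseudocount, the level filter, the unit, the columns used and the treatment of Gzmc to Gzmg. Named were all members, of each list the called genes where there were 5 or fewer and otherwise up to 4 with the largest ratios, the listed genes beside each member, and the 5 genes nearest in pattern to Gzmb, Gzmc and Prf1. Other names were added after their values were seen. The members, lists and comparisons were chosen with earlier results of these data known.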

Additional observations from a re-analysis of the deposited data

How the results depend on the processing

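Each member's log2 ratio was recomputed under 9 other settings in both comparisons. In the cytokine comparison 84 of the resulting values kept the call as reported, 4 gained one (Gzmc and Gzmk, each with a pseudocount of 0.5 CPM and with column 2 alone) and 2 lost it (Gzmm with a pseudocount of 5 CPM and with a filter of 10 CPM). In the age comparison 87 kept it and 3 lost it (Gzmg under the same 2 settings and Gzmf with the filter). No called ratio changed sign. The members called higher with the cytokines thus numbered 2 with a pseudocount of 0.5 CPM or column 2 alone, against 0 as reported. Summing Gzmc to Gzmg as 1 feature left 3 features called higher with age, by construction. Over all genes, a pseudocount of 5 CPM left 296 higher and 190 lower genes with the cytokines (484 and 417 as reported) and 87 higher and 62 lower with age (260 and 133). A filter of 10 CPM left 234 lower with the cytokines and 123 higher with age, as fewer genes are tested. The Gzmb share of family TPM was 62.1% and 61.6% with column 1 or column 2 alone in aged TRM and 83.7% and 82.2% in young TCR. Counted in reads, not divided by length, it was 72.6% in aged TRM, 82.1% in young TRM and 87.6% in young TCR. Depth limits Gzmd to Gzmg in the young samples, which had 57 reads or fewer. No paired analysis was possible because each group has 1 sample.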

Other observations

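Of the 5 mast cell protease (Mcpt) genes listed beyond Gzme and Ctsg on chromosome 14, 3 had more than 1 read in the TRM samples. Mcpt4 had 1 read in aged TRM, 1 in young TRM and 0 in young TCR, and Mcpt9 had 1, 0 and 0. Mcpt1 had 540 reads in aged TRM, 77 in young TRM and 1 in young TCR, or 13.3, 2.19 and 0.0247 CPM in that order. Aged TRM was 6.08-fold higher than young TRM (4.78 to 7.82), and young TRM was 88.6-fold higher than young TCR (15.4 to 3544). Mcpt2 had 271 reads in aged TRM, 143 in young TRM and 0 in young TCR. The counting interval of young TRM over young TCR began at 44.0-fold and had no upper limit. Taking 3 reads as the limit of young TCR gave 54.8-fold, which leaves out the counting error of young TRM. Mcpt8, a protease of basophils, had 131 reads in aged TRM, 59 in young TRM and 7 in young TCR. Among defining genes of mast cells and basophils, Cpa3 had 5.46 CPM in aged TRM, 5.36 CPM in young TRM and 0.814 CPM in young TCR. Ms4a2 had 1.84, 1.48 and 1.43 CPM, and Fcer1a had 1.35, 0.624 and 0.0247 CPM. Cma1 had 1.62, 0.738 and 0.197 CPM, and Tpsb2 had 0.394, 0.312 and 0 CPM. Of 12 granule protease genes of other leukocytes, 9 were in the table, and 4 of these reached 1 CPM in aged TRM or young TRM. In the age comparison 1 of those 4 was called higher (Mcpt1). Whether T cells or other cells carried the Mcpt transcripts was not tested.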
